A study of Mus musculus with 8 samples.

Results

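The Dlx and Msx homeobox genes were followed in enamel organs of mouse first molars at postnatal day 5 (P5, secretory stage) and day 12 (P12, maturation stage). The members were taken by name from the deposited count table and are Dlx1, Dlx2, Dlx3, Dlx4, Dlx5, Dlx6, Msx1 and Msx2, 8 of the 54532 genes listed. All 8 were among the 16440 genes with enough counts to be tested. The mice were C57BL/6 of genotype wt, with no treatment at either age, so that the groups differ in age alone as far as the labels say. Tissue of 5 pups was pooled for each library, with 4 libraries at P5 (replicates 1, 3, 4 and 5) and 4 at P12 (replicates 1 to 4). The labels describe the cells as derived from epithelium.

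Dlx and Msx proteins are transcription factors with a homeodomain, a DNA-binding fold that recognises short AT-rich sites. The Dlx genes lie in linked pairs, Dlx1 with Dlx2, Dlx3 with Dlx4, and Dlx5 with Dlx6, and the genes of a pair are transcribed towards each other and share regulatory DNA. Msx proteins mainly repress transcription and Dlx proteins mainly activate it, often on the same sites. In teeth, Msx1 is best known in the dental mesenchyme, Msx2 and Dlx3 in the enamel epithelium, and loss of Msx2 in mice or mutation of human DLX3 gives defective enamel.

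Library totals ranged from 16574548 to 20262601 counts at P5, and those of P12 from 17588152 to 22013456. A normalized count is a count scaled by TMM to a library of mean effective size. Dental epithelium markers were present in all libraries, but so were mesenchyme markers, whose summed normalized count (7 genes, among them Col1a1 and Col1a2) was 890201 to 1069166 at P5 and 753110 to 1021126 at P12. Odontoblast markers (Dspp, Dmp1 and Phex) summed to 148030 to 194852 and 169300 to 196703. Markers of cells outside the epithelium were thus abundant at both ages. In bulk samples such as these, fewer cells of a type and less RNA per cell cannot be told apart. P12 replicate 4 had the highest secretory ameloblast and the lowest oral epithelium marker sum of the P12 libraries. These were 1.99 and 0.277 times the mean of the other P12 libraries. The maturation ameloblast marker sum of replicate 4 was the highest at P12 as well, at 1.15 times that of the others. The secretory sums were graded, at 237041, 264278, 433633 and 621683 in replicates 1 to 4. A screen for single outlying libraries flagged 0 of the 30 groups of values examined. Fits without replicate 4 are thus a check and not a correction. P5 replicate 5 had maturation ameloblast markers at 0.325 times the mean of the other P5 libraries.

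Most, but not all, of these genes were lower in maturation than in secretory enamel organs. At an adjusted p under 0.05 (edgeR quasi-likelihood fit, Benjamini-Hochberg over all genes tested), 6 of 8 members fell, namely Dlx2, Dlx3, Dlx4, Dlx5, Dlx6 and Msx2. Of all genes tested, 28.4% were called lower at P12 and 57.2% in either direction. No member rose (28.8% of all genes did), and 0 were higher at an unadjusted p under 0.05 by edgeR, DESeq2 or limma-voom. The median log2 fold change of the 8 genes was -0.59, against 0.01 over all genes. In 5 of the 8 every P12 library was below every P5 library, which held for 26.6% of all genes tested, while no member had every P12 library above (26.0% of all genes). Over all genes the ages did not overlap in 52.5%. The log2 fold change was at most -1 in 3 of the members that fell, Dlx4, Dlx5 and Msx2, as in 10.2% of all genes. Without P12 replicate 4, 7 members were lower and 1, Msx1, was higher, beside 5092 lower and 4938 higher of 16914 genes tested. With scaling by total count alone, which moved the median of all genes to 0.38, 3 members were lower (Dlx4, Dlx5 and Msx2) and Msx1 was higher. Of the 16440 genes, 2330 were then called lower and 8885 higher. Relative to the median of all genes, the log2 fold change of Msx1 was then 0.18.

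**Figure D1:**
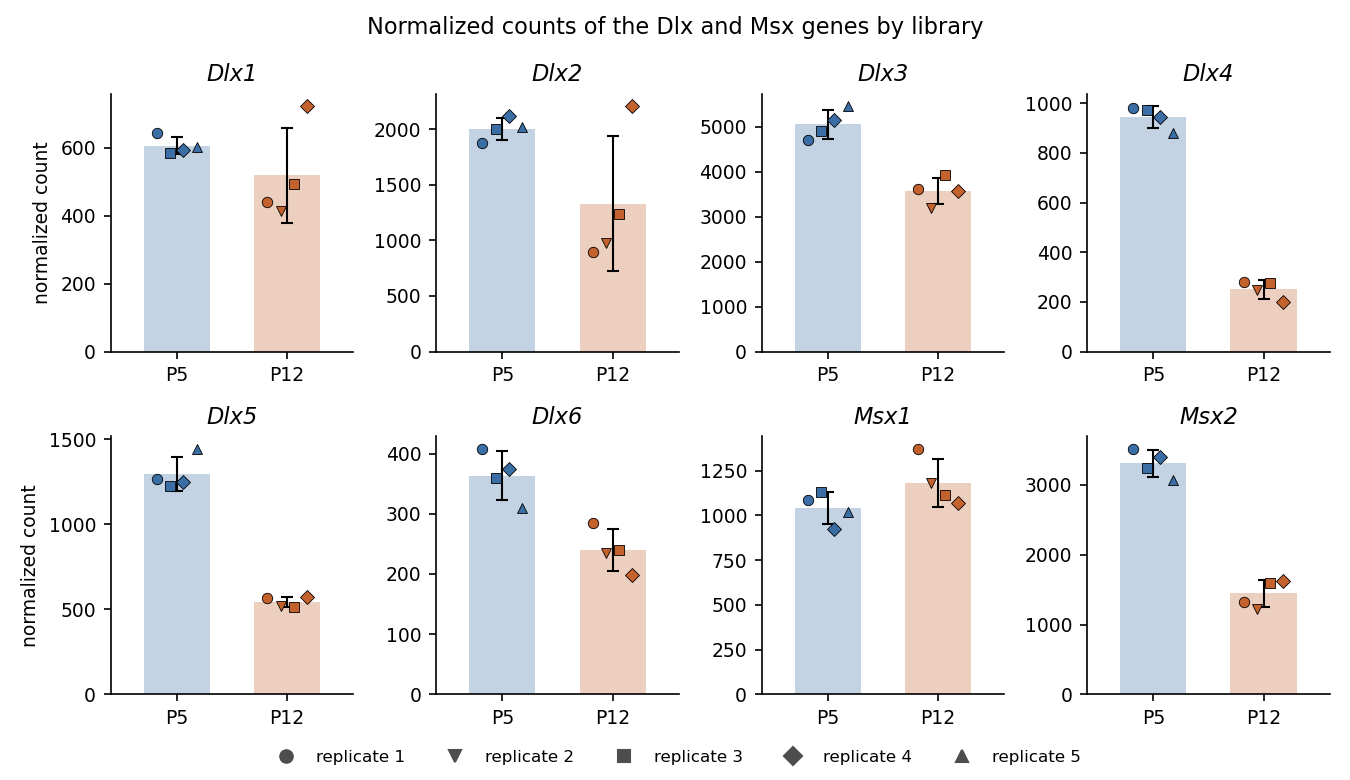
Normalized count (y axis, linear, from 0) of each gene in each library, with P5 in blue and P12 in orange. Bars give the mean, error bars the SD of 4 pools and symbols the replicate number. Dlx4 drops from 944 to 251 with no overlap, and Dlx1 and Dlx2 of P12 replicate 4 (diamonds) lie at or above the P5 libraries.

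Dlx4 had the largest change of the family. It lies on chromosome 11 of GRCm38 (ENSMUSG00000020871, 95140447 to 95146263, reverse strand). Dlx4 is the family member with the least well known function, described mainly in placenta and blood cells. Its normalized counts were 981, 972, 944 and 881 in P5 replicates 1, 3, 4 and 5, and 279, 247, 278 and 199 in P12 replicates 1 to 4. The groups were far apart, and the lowest library was P12 replicate 4. Means of 944 ± 45.2 at P5 and 251 ± 37.7 at P12 (SD, n = 4 pools each) gave a log2 fold change of -1.91 (standard error 0.10, edgeR adjusted p = 6.0e-08), so that P5 was 3.75 times P12. The two-sided exact permutation test gave p = 0.0286, the smallest that 4 libraries against 4 allow.

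The antisense RNA gene Dlx4os (ENSMUSG00000086552, chromosome 11, 95145052 to 95159047, forward strand) starts inside Dlx4 and fell by the same order, from 1064, 1089, 1113 and 1037 at P5 to 282, 254, 308 and 271 at P12. Its log2 fold change was -1.95 (standard error 0.07, edgeR adjusted p = 4.5e-09). Exons of the overlapping gene cover 2.4% of the exonic bases of Dlx4 and 4.7% of those of Dlx4os. The use of strand in the counting is not given in the sources used here, so reads from these shared bases cannot be assigned to one gene. The 250 bases before the start of Dlx4os are shown because this start lies within an intron of Dlx4, and both genes fell (RefSeq, GRCm38.p6, chr11:95144803-95145052, forward strand):
Dlx4os upstream: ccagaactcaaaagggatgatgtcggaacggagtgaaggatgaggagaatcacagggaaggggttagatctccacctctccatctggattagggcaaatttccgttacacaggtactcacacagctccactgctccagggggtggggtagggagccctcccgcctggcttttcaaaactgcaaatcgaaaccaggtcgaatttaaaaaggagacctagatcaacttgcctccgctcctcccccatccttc
No capitals appear, since none of the motifs searched on either strand is in this window. They were the homeodomain cores TAATTA and, with its last base changed, TAATTG, the promoter elements known as the CCAAT box and the TATA box (searched as TATAAA), the GC box (searched as GGGCGG), and the palindrome GGCGCC. These letters say nothing of sites outside it.

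Dlx3, the partner of Dlx4, is a known activator of enamel genes and the gene mutated in tricho-dento-osseous syndrome. It lies on chromosome 11 (ENSMUSG00000001510, 95120119 to 95125296, forward strand), 15.2 kb from Dlx4, and shares no exonic base with another gene. It was read at 4715, 4918, 5145 and 5469 normalized counts at P5 and at 3607, 3204, 3922 and 3583 at P12. All P12 libraries were below all P5 libraries, and replicate 4 was not apart from the others here. The mean fell from 5062 ± 323 to 3579 ± 294 (SD, n = 4 pools each), and the log2 fold change was -0.50 (standard error 0.08, edgeR adjusted p = 1.9e-04). With total count scaling the log2 fold change was -0.13 and the edgeR adjusted p 0.17, or -0.51 once the median of all genes is taken off.

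Msx2 and Msx1 did not move alike. Msx2 (ENSMUSG00000021469, chromosome 13, 53466884 to 53473074, reverse strand) encodes a repressor that antagonises C/EBP alpha on the amelogenin promoter. Its normalized counts were 3516, 3243, 3402 and 3069 at P5, and at P12 they were 1326, 1226, 1597 and 1630. Every P12 library was well under every P5 library. From 3308 ± 194 the mean fell to 1445 ± 200 (SD, n = 4 pools each), and the log2 fold change was -1.20 (standard error 0.10, edgeR adjusted p = 1.2e-06). This call was kept in all 18 alternative fits, with log2 fold changes between -1.29 and -0.83.

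Msx1 (ENSMUSG00000048450, chromosome 5, 37820485 to 37824583, reverse strand) is required in dental mesenchyme for teeth to pass the bud stage. It was at 1088, 1129, 925 and 1022 normalized counts at P5 and at 1373, 1180, 1115 and 1068 at P12. The ages overlapped, with P12 replicate 1 highest and P5 replicate 4 lowest. Means of 1041 ± 88.8 at P5 and 1184 ± 134 at P12 (SD, n = 4 pools each) did not pass the test (log2 fold change 0.19, standard error 0.09, edgeR adjusted p = 0.10). Without P12 replicate 4 the edgeR adjusted p was 0.043 (log2 fold change 0.23), and over the 18 alternatives it lay between 6.1e-04 and 0.32. Mesenchyme markers did not change together: 3 of 7 were higher at P12 (Col3a1, Postn and Lum), 2 were lower (Col1a2 and Dcn) and 2 were not called, and none was at 0. Their part in the Msx1 values was not tested.

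The ratio of Msx1 to Msx2 within each library does not depend on library scaling. On the log2 scale it was -1.69, -1.52, -1.88 and -1.59 at P5 and 0.05, -0.05, -0.52 and -0.61 at P12. Msx2 counts were thus well above Msx1 counts in secretory enamel organs, and the counts lay close together in 2 of the 4 maturation libraries. The mean log2 ratio differed by 1.39 between the ages (exact permutation test, two-sided p = 0.0286, or 0.0381 after Benjamini-Hochberg adjustment over the 4 ratios tested).

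**Figure D2:**
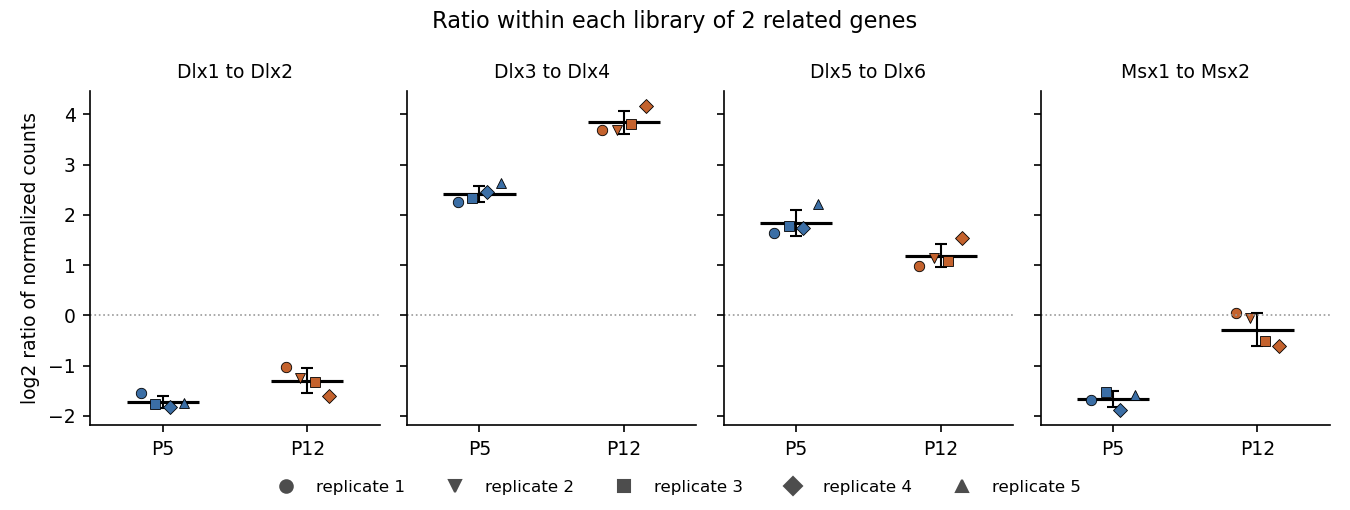
Log2 ratio of normalized counts (y axis) of the named genes in each library at P5 (blue) and P12 (orange). Horizontal lines give the mean, error bars the SD of 4 pools and symbols the replicate number. The Msx1 to Msx2 and Dlx3 to Dlx4 ratios are higher in all P12 libraries, the Dlx5 to Dlx6 ratio is lower in all, and the Dlx1 to Dlx2 ratio overlaps.

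The 250 bases before the start of Msx1 are shown, as the promoter of the member whose mean was not lower at P12 (RefSeq, GRCm38.p6, chr5:37824586-37824835, reverse strand). Capitals mark CCAAT or GGGCGG, read on either strand:
Msx1 upstream: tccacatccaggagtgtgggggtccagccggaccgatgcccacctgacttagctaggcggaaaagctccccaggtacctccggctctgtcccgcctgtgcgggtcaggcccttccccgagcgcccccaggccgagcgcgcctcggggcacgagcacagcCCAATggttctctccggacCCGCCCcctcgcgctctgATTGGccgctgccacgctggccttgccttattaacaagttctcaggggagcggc
RefSeq promoter windows (250 bases before to 50 after a start) matched 4 of the 8 members, Dlx1, Dlx2, Msx1 and Msx2. The Msx1 window holds CCAAT 91 and 54 bases before the start, a motif in 37.4% of the 32851 promoter windows, and GGGCGG 72 bases before it, which is in 35.7%. Neither is particular to Msx1, as GGGCGG is in all 4 of these windows and CCAAT also in those of Dlx2 and Msx2. The windows of Dlx1 and Msx2 belong to RefSeq starts inside the genes as annotated here, and all 300 bases of each lie in exons of the gene itself. The Msx2 window holds TAATTA, the core that many homeodomains bind, 187 bases before that internal start, which is thus within an untranslated exon and not upstream of the gene. That motif is in 5.29% of all windows and in none of the windows of the other 3 matched members. TAATTG, in 8% of all windows, is in none of the 4. A match is a string of letters and not a measured binding site.

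Dlx5 and Dlx6 are linked on chromosome 6 and are needed for jaw patterning and bone formation. Dlx5 (ENSMUSG00000029755, 6877805 to 6882085, reverse strand) was at 1266, 1226, 1246 and 1444 normalized counts at P5 and at 564, 522, 513 and 575 at P12. The P12 libraries lay close together, all below the P5 range, and P5 replicate 5 was highest. Its mean fell from 1296 ± 100 to 544 ± 30.4 (SD, n = 4 pools each), and the log2 fold change was -1.25 (standard error 0.07, edgeR adjusted p = 1.1e-07).

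Dlx6 (ENSMUSG00000029754, 6863334 to 6868568, forward strand) lies 9.24 kb away and fell by less. Its values were 408, 360, 374 and 310 at P5, and at P12 they were 284, 235, 240 and 199, with the lowest P5 library (replicate 5) a little above the highest P12 library. From 363 ± 40.5 to 239 ± 34.8 (SD, n = 4 pools each), the log2 fold change was -0.59 (standard error 0.12, edgeR adjusted p = 0.0015). It was -0.22 with total count scaling (edgeR adjusted p = 0.18), or -0.60 relative to the median of all genes. The Dlx5 to Dlx6 log2 ratio went from 1.84 ± 0.26 to 1.19 ± 0.24 (SD, n = 4), lower in 4 of 4 P12 libraries (exact permutation test, two-sided p = 0.0286, adjusted over the 4 ratios p = 0.0381).

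The noncoding RNA gene Dlx6os1 (ENSMUSG00000090063, chromosome 6, 6820189 to 6871592, reverse strand), known as Evf2 and studied as a partner of Dlx proteins in forebrain, spans Dlx6 on the other strand. It went the other way. Its normalized counts were 293, 359, 326 and 238 at P5, and at P12 they were 350, 387, 524 and 658, with P12 replicate 4 highest and a slight overlap of the ages. The log2 fold change was 0.65 (standard error 0.19, edgeR adjusted p = 0.013), and the two-sided exact permutation test gave p = 0.0571. Of the exonic bases of Dlx6os1, 9.5% are shared with Gm27699, Gm27905 or a further entry named Dlx6os1. No exonic base of Dlx6os1 lies in an exon of Dlx6, and 4.4% of the exonic bases of Dlx6 lie in exons of Dlx6os2, which had between 1 and 10 counts per library.

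Dlx1 and Dlx2 lie 9.43 kb apart on chromosome 2 and act redundantly in the mesenchyme of upper molars and in forebrain neurons. Dlx2 (ENSMUSG00000023391, 71543408 to 71546754, reverse strand) was at 1879, 1998, 2118 and 2018 normalized counts at P5 and at 898, 980, 1234 and 2209 at P12. Thus 3 P12 libraries lay far below P5, while P12 replicate 4 was above all P5 libraries. The log2 fold change was -0.59 (standard error 0.23, edgeR adjusted p = 0.046), and the call rests on the fit. DESeq2 gave an adjusted p of 0.083 at the same log2 fold change, the exact permutation test gave a two-sided p of 0.143, and 8 of 18 alternative fits called it. Without P12 replicate 4 the log2 fold change was -0.96 (standard error 0.09, edgeR adjusted p = 2.2e-06).

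Dlx1 (ENSMUSG00000041911, 71528113 to 71533981, forward strand) had the same library apart. It was at 643, 585, 595 and 602 normalized counts at P5 and at 441, 415, 495 and 724 at P12. Means of 606 ± 25.5 at P5 and 519 ± 141 at P12 (SD, n = 4 pools each) did not pass the test (log2 fold change -0.23, standard error 0.15, edgeR adjusted p = 0.22). Without P12 replicate 4 it was -0.43 (standard error 0.08, edgeR adjusted p = 4.9e-04). Scaled by total count, the log2 fold change was 0.14 (edgeR adjusted p = 0.38), or -0.24 relative to the median of all genes. The antisense gene Dlx1as covers 6.2% of the exonic bases of Dlx1 and was low, at 64.1 ± 10.6 and 46.2 ± 13.0 normalized counts (SD, n = 4).

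The 250 bases before the start of Dlx2 are shown as the promoter of the gene with the widest spread among the maturation libraries (RefSeq, GRCm38.p6, chr2:71546755-71547004, reverse strand). Capitals mark, in this order, the GC box, the palindrome and the CCAAT box named above, read on either strand:
Dlx2 upstream: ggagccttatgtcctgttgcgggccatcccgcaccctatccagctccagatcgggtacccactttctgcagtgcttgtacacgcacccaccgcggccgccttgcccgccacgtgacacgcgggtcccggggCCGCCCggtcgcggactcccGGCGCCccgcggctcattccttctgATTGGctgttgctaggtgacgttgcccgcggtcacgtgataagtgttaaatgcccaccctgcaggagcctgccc
GGCGCC, a sequence that BMP-activated Smads can bind, is in 11.9% of all promoter windows, and in none of the other 3 matched members.

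Dlx2 and Dlx1 varied more than most genes among the P12 libraries. The coefficient of variation of Dlx2 was 4.89% at P5 and 45.3% at P12, against a median of 10.8% and 11.9% over all genes tested. For Dlx1 it was 4.21% and 27.1%. At P12 these values were above those of 93.2% and 81.1% of all genes for Dlx2 and Dlx1. The other 6 members were between 5.60% and 15.0% at P12. In P12 replicate 4, Dlx2 was 2.13 times and Dlx1 1.61 times the mean of the other P12 libraries, whereas Dlx4 was 0.741 times, Dlx6 0.786 times and Msx1 0.874 times it.

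**Figure D3:**
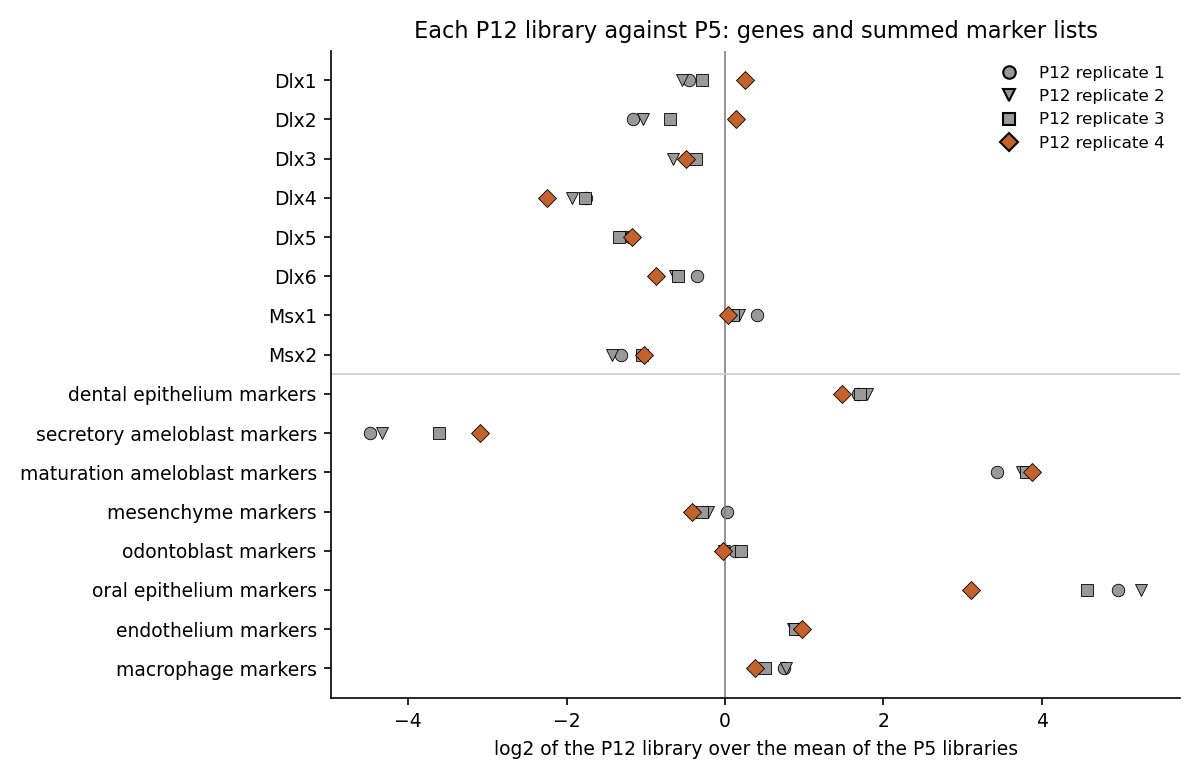
Each P12 library against the mean of the P5 libraries (x axis, log2 ratio of normalized counts) for the 8 genes and for the summed marker lists, with replicate 4 in orange. Replicate 4 is the only P12 library to the right of 0 for Dlx1 and Dlx2, is leftmost for Dlx4 and Dlx6, and has the highest secretory and lowest oral epithelium sum.

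In the same library the summed secretory ameloblast markers (Amelx, Ambn, Enam and Mmp20) were at 621683, against 237041 to 433633 in the other P12 libraries and 4966559 to 5580346 at P5. Summed maturation ameloblast markers (Klk4, Amtn, Odam, Slc24a4 and Wdr72) were highest there too, at 482565, against 356963 to 458253 in the other P12 libraries. Of these markers only Odam was not highest in replicate 4. Summed oral epithelium markers (Krt13, Krt4, Krt6a and Krt76) were at 10635, against 29349 to 47154 at P12 and 791 to 1552 at P5. Summed mesenchyme markers were at 0.836 and odontoblast markers at 0.918 times the mean of the other P12 libraries. Col1a1 and Col1a2 make up most of the first sum and Dspp most of the second. Each mesenchyme marker was lowest in replicate 4, with Col3a1 at 32390 against 35470 to 86935 and Postn at 10700 against 13543 to 26557. Dmp1 (890 against 1103 to 1561) and Phex were lowest there as well, and Dspp was not. Trp63, a regulator of stratified epithelium that acts upstream of Dlx genes, was highest there, at 9411 against 4593, 5195 and 6051. Among the other partners and co-regulators counted below, Sp6, Runx2, Maged1, Ndn, Tle1, Tle3 and Tle4 were highest in replicate 4 too. Cebpa, Cebpb and Tle2 were lowest in it. What part these differences have in the Dlx1 and Dlx2 values was not tested.

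Levels of different genes were compared per kilobase of gene length as deposited, which counts the exonic bases of all annotated transcripts together. At P5 the order was Dlx3, Msx2, Dlx2, Dlx5, Msx1, Dlx4, Dlx6 and Dlx1. Dlx3 stood at 1942 ± 124 normalized counts per kilobase (SD, n = 4 pools), above 98.4% of all genes tested, and Msx2 followed at 1009 ± 59.2. At the bottom were Dlx6 at 153 ± 17 and Dlx1 at 112 ± 4.73. By mean normalized count, without length, Dlx1 (606) was above Dlx6 (363), and 6 members kept their place in the P5 order. Each gene was above the next in 4 of 4 libraries, and only the ranges of Msx1 (299 to 365) and Dlx4 (269 to 300) touched.

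At P12 Dlx3 was still first, at 1373 ± 113 normalized counts per kilobase (SD, n = 4 pools). The next genes could not be ordered beyond their spread. Dlx2 was at 466 ± 211, Msx2 at 441 ± 60.9 and Msx1 at 382 ± 43.3, with Dlx2 above Msx2 in 1 of 4 libraries and Msx2 above Msx1 in 2 of 4. Dlx5 followed at 240 ± 13.5, below Msx1 in 4 of 4 libraries. Dlx6 at 101 ± 14.6, Dlx1 at 96.1 ± 26.1 and Dlx4 at 76.7 ± 11.5 overlapped one another, with Dlx4 moved from the sixth to the last place. The share of Dlx3 in the sum over the family was 37.9% ± 1.79 at P5 and 43.4% ± 3.01 at P12 (SD, n = 4), that of Msx1 6.58% ± 0.650 and 12.2% ± 2.16, and that of Msx2 19.7% ± 1.39 and 13.8% ± 0.778.

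**Figure D4:**
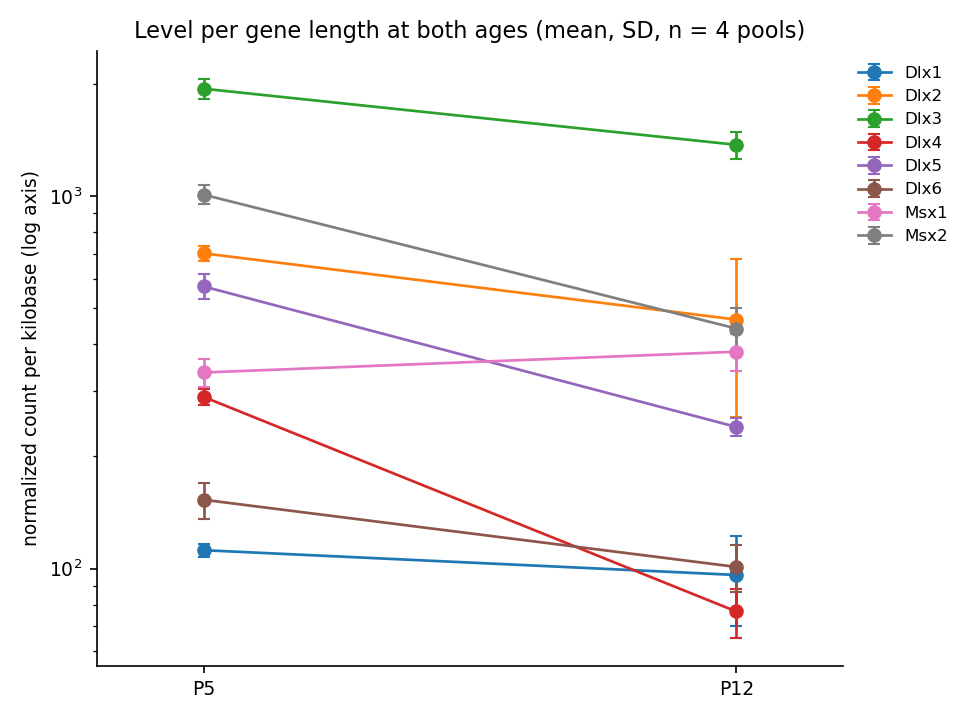
Mean normalized count per kilobase (y axis, log scale) of each gene at P5 and P12, with error bars for the SD of 4 pools. Dlx3 is highest at both ages, the Msx1 line crosses that of Dlx5, and Dlx4 drops below Dlx6 and Dlx1.

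Within the other linked genes, the Dlx3 to Dlx4 log2 ratio went from 2.42 ± 0.16 to 3.84 ± 0.23 (SD, n = 4 pools), higher in 4 of 4 P12 libraries (exact permutation test, two-sided p = 0.0286, adjusted over the 4 ratios p = 0.0381). Dlx3 counts were thus 5.35 times those of Dlx4 at P5 and 14.3 times at P12. Dlx1 and Dlx2 kept closer to each other. Their log2 ratio was -1.72 ± 0.12 and -1.30 ± 0.24 (SD, n = 4), with overlap between the ages (exact permutation test, two-sided p = 0.0571, adjusted p = 0.0571).

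**Figure D5:**
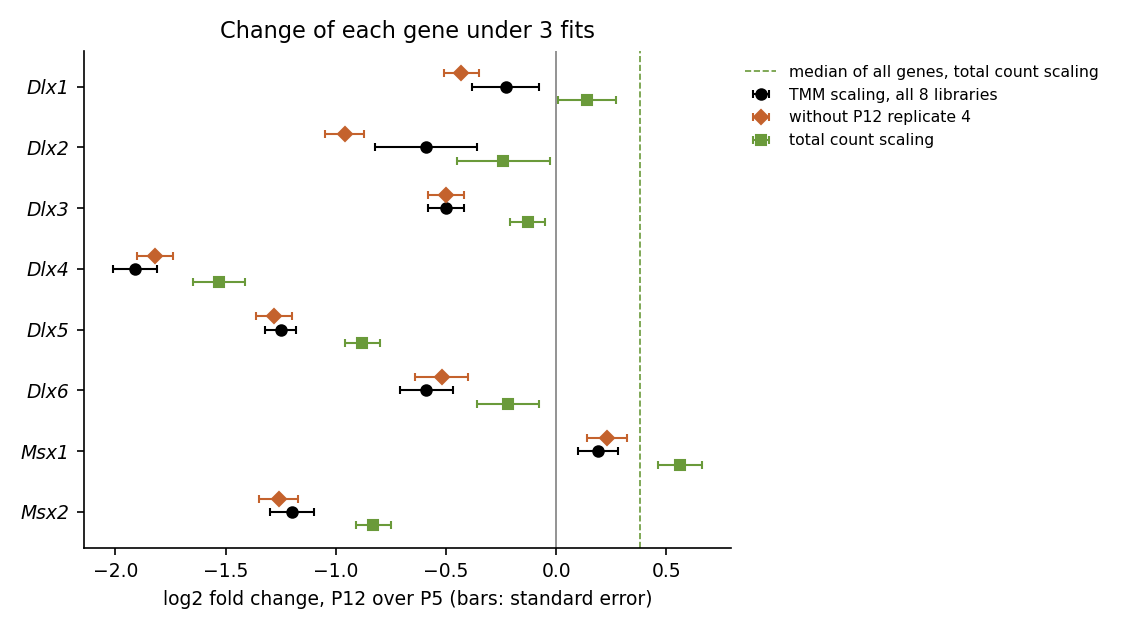
Log2 fold change of P12 over P5 (x axis) with its standard error for each gene in the edgeR fit of all 8 libraries, without P12 replicate 4, and with total count scaling, under which the dashed line marks the median of all genes (0.38). Dlx4, Dlx5 and Msx2 lie far left of 0 in all 3 fits, Dlx1 changes sign with total count scaling, and Dlx2 moves from -0.59 to -0.96 without replicate 4.

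Genes related to the Dlx and Msx proteins or to their upstream pathways were counted from fixed lists. Of 11 partners and co-regulators, 4 rose, 4 fell and 3 did not pass the test, with a median log2 fold change of -0.15. Over all genes tested, 28.8% rose and 28.4% fell. Cebpa, which encodes the activator that Msx2 antagonises, rose from 152 ± 13.6 to 419 ± 147 normalized counts (SD, n = 4 pools each), and its log2 fold change was 1.47 (standard error 0.24, edgeR adjusted p = 3.1e-04). Maged1, whose product binds Dlx5 and Msx2, fell from 14254 ± 76.2 to 6991 ± 335 (SD, n = 4), and Tle4, a co-repressor of the Groucho family, from 1467 ± 85.6 to 273 ± 78.0 (SD, n = 4). Sp6, a zinc finger factor required for enamel, had a log2 fold change of -1.63 (standard error 0.19, edgeR adjusted p = 2.5e-05). Tle1, Cebpb and Runx2 were the other partners that rose and Ndn the other that fell, while Trp63 (-0.15), Tle2 (-0.31) and Tle3 (0.10) did not pass the test. Runx2 and Ndn were each called in 15 of the 18 alternative fits, and Ndn was at -0.17 with total count scaling (edgeR adjusted p = 0.43).

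A list of 14 genes of the BMP, FGF, Wnt and hedgehog pathways held genes that act upstream of Msx and Dlx genes, and the Id genes, which are BMP targets. Of these, 13 were tested, and 7 fell and 3 rose (median log2 fold change -0.51), beside 28.4% and 28.8% of all genes tested. The 3 that did not pass the test were Lef1, Smad1 and Smad4. Bmp4, the inducer of Msx genes in early teeth, fell from 3016 ± 339 to 1690 ± 204 normalized counts (SD, n = 4 pools each), and its log2 fold change was -0.84 (standard error 0.10, edgeR adjusted p = 3.6e-05). Among the Id genes, which BMP signals induce directly, Id1 (-0.79) and Id2 (-1.07) fell and Id3 (0.24) rose on the log2 scale. Bmp2, Shh (-8.32), Wnt10a and Smad5 also fell, and Bmp7 (0.57) and Wnt10b (4.24) rose on the log2 scale. With total count scaling Bmp2 (-0.25, edgeR adjusted p = 0.093), Wnt10a (-0.17, adjusted p = 0.31) and Smad5 (-0.14, adjusted p = 0.067) did not pass the test, and Id3 was called in 16 of the 18 alternative fits. Fgf8 was not tested, with at most 3.18 normalized counts in any library.

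For each list below, the shares over all genes tested were 28.8% higher at P12, 28.4% lower and 57.2% in either direction. All 6 listed enamel genes that Dlx3 or Msx2 regulate changed. Amelx, Ambn, Enam and Lama3 were lower at P12 and Klk4 and Odam were higher. All of these but Lama3 are also ameloblast stage markers in the lists used here. Their change goes with the stages compared and is no test of Dlx3 or Msx2 action. Of 6 bone-type genes that Dlx5 and Msx2 regulate in osteoblasts, 5 rose (Sp7, Ibsp, Bglap2, Alpl and Spp1) and Bglap, at a log2 fold change of 0.32, did not pass the test (edgeR adjusted p = 0.062). Bglap and Bglap2 are near-identical copies whose reads the counting could have split, so their values are uncertain. Of 4 transcription factors of odontogenic mesenchyme, Lhx6 (-1.32) and Lhx8 (-0.37) fell and Pax9 (1.31) and Barx1 (0.29) rose. Barx1 was called in 8 of the 18 alternative fits, and Lhx8 in 14, with its sign turned by total count scaling (0.01). Among the other marker lists, 4 of 4 endothelial, 3 of 4 macrophage, 4 of 4 oral epithelium, 5 of 5 maturation ameloblast and 3 of 4 dental epithelium markers (not Cdh1, which was lower) were higher at P12, 4 of 4 secretory ameloblast markers were lower, and of 3 odontoblast markers Dmp1 was lower and the other 2 did not pass the test. With total count scaling the signs of Cdh1 (0.06) and Col1a2 (0.02), both called lower above, turned as well. Dmp1 was called in 9, Col1a2 in 10 and Csf1r, of the macrophage markers, in 12 of the 18 alternative fits, while Cdh1, Dcn and Ptprc were each called in 17. No marker of any list was at 0 in all libraries.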

How the data were processed

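Total RNA of pooled enamel organs was captured by polyA selection and sequenced. The authors deposited raw counts of reads for each gene, beside gene coordinates and lengths. The submitters' processing notes name CASAVA and the build mm39, while the coordinates of these genes are those of GENCODE M21 on GRCm38 and are given so here. The aligner, the counter and its use of strand are not given in the sources used here. Groups and replicate numbers came from the sample titles.

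Counts of all genes passing filterByExpr (16440) entered 1 edgeR fit (version 4.0.16, R 4.3.3) of age alone, with TMM scaling and glmQLFTest. P-values were adjusted by Benjamini-Hochberg, and the threshold was 0.05. The standard error is the log2 fold change divided by the square root of the F statistic. Single values were tested by a two-sided exact permutation test (70 arrangements), on log2 values with a pseudocount of 1 (scipy 1.17.1). Nothing says whether pools shared litters, so p-values measure only the spread between these pools. No 2 libraries of the same age were alike within sampling noise. Alternatives were DESeq2 1.42.0, limma-voom (limma 3.58.1), other scalings and filters, and left-out libraries. The fits were tested on simulated data.

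Same-numbered libraries did not deviate together (correlations of -0.036 to 0.045 across genes), so the numbers were not used as pairs. Gene likeness is the root mean square difference of mean-centred log2 profiles among genes with a mean normalized count of at least 100. Named genes are the members, the fixed lists, the neighbouring genes and the 3 most alike genes of each member. The members and lists were chosen with earlier results of these data known. Tp63 was matched to the symbol Trp63, and Msx1as was not matched. One gene of the list of partners is not reported here and was left out of its counts.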

Additional observations from a re-analysis of the deposited data

How the results depend on the processing

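Dlx4, Dlx5 and Msx2 were called lower in each of 18 alternative fits, and Dlx3 and Dlx6 in 17 of them. Total count scaling turned the calls over all genes from 4735 higher and 4676 lower to 8885 higher and 2330 lower. With total count scaling, which shifts the median of all genes by 0.38, the log2 fold changes were 0.14 for Dlx1 (reversed), -0.24 for Dlx2, -0.13 for Dlx3, -0.22 for Dlx6 and 0.56 for Msx1, with 3 members called lower and 1 higher. Without P12 replicate 4 and P5 replicate 5 together, Dlx1 was at -0.43 and Msx1 at 0.22, both past the threshold, with 7 members lower and 1 higher. That fit called 4855 lower and 4921 higher of 16667 genes tested. DESeq2 gave -0.59 for Dlx2, short of the threshold (adjusted p = 0.083). A minimum absolute log2 fold change of 1 left 3 members lower. Fits without single libraries gave -0.43 to -0.14 for Dlx1, -0.96 to -0.45 for Dlx2 and 0.10 to 0.23 for Msx1, 5 to 7 members lower and 0 to 1 higher. Dlx2 lost its call without any single library other than P12 replicate 4, with adjusted p up to 0.12. By normalized count instead of count per kilobase, 3 members kept their place in the P12 order, and without single P12 libraries 5 to 8 did. With a replicate block, in the 6 libraries numbered 1, 3 or 4, the fit gave -0.56 for Dlx2 (adjusted p = 0.035) and 6 members lower, and the same 6 libraries without the block gave -0.47 for Dlx2 (adjusted p = 0.18) and 5 lower, with no other call of a member changed. With 3 against 4 libraries a permutation test cannot go below 0.0571. The causes of these differences were not tested.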

Other observations

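The protein-coding genes next to the members did not share one direction. Next to the Dlx1 and Dlx2 locus, Metap1d (2.92 kb from Dlx1) had a log2 fold change of -0.29 (standard error 0.06, edgeR adjusted p = 0.0021), whereas Itga6, an integrin of hemidesmosomes 199 kb from Dlx2, was at 5116 ± 329 normalized counts at P5 and 18761 ± 1195 at P12 (SD, n = 4 pools), a log2 fold change of 1.87. Itga3, 43.3 kb from Dlx3, fell from 3505 ± 191 to 1534 ± 128 (SD, n = 4), and Stx18, 214 kb from Msx1, fell from 2757 ± 196 to 540 ± 70.6 (SD, n = 4), which is -2.35 on the log2 scale beside the 0.19 of Msx1. Sptlc1, 89.5 kb from Msx2, rose by 0.48 on the log2 scale, against -1.20 for Msx2. Beside Dlx5 and Dlx6, Sdhaf3 (-0.38, adjusted p = 0.083) and Sem1 (0.12, adjusted p = 0.23) did not pass the edgeR test. Tac4, Cytl1 and Drd1, the remaining neighbours, were too low to test. The neighbours were read from the TMM-scaled fit alone.

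Over the 8 libraries, the genes with the profile most like that of each member were found among 11345 genes with a mean normalized count of at least 100. The smallest root mean square difference on the log2 scale was 0.10 for Dlx4, with Fam20a, a pseudokinase required for enamel, followed by Sirpa and Rhbdf2 (0.11 each). It was 0.13 for Dlx2, with Prkci, and 0.09 for Dlx6, with Fkbp7. For Dlx3 (Cdc42bpb, Shkbp1 and Mta1, 0.04 each), Dlx5 (Slc39a11 and the Wnt receptor gene Fzd7, 0.04 each), Dlx1 (Lrrk2, 0.05), Msx2 (Golga3, 0.05) and Msx1 (the cartilage-type collagen gene Col11a1, 0.06) it was smaller. With a minimum of 1000, 13 of the 24 listed genes were found again. Among the members themselves, Dlx5 and Msx2 were the most alike (0.17) and Dlx4 and Msx1 the least (1.06). These profiles are set mainly by the 2 ages and are a description, with no test.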
